A study of Mus musculus with 2 samples.

Results

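The 30 genes described here encode transcription factors, cofactors and other proteins of naive and core pluripotency in mouse embryonic stem cells. They were chosen by name, as a list of pluripotency symbols, and each was represented by the listed transcript with the highest summed level. All 30 were found, of 22421 genes with a symbol. RNA was taken from CGR8 cells, a mouse embryonic stem cell line grown without feeder cells on gelatin, in serum with leukaemia inhibitory factor (LIF). One group received siRNA against Set1a and the other a negative siRNA, here called control siRNA; for both, transfection was done 2 times and is labelled with 72 hours. Each group was 1 library of total RNA, so no value has a replicate check, no test between groups was possible, and every difference below lies between 2 libraries. Set1a, listed as Setd1a, encodes a histone H3 lysine 4 methyltransferase, and the comparison asked how its knockdown affects gene expression.

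Pluripotency is the ability of a cell to form all tissues of the embryo. OCT4, SOX2 and NANOG form its core and bind together at many enhancers, often through a composite element in which an octamer, the site read by OCT4, lies beside a SOX site. In naive cells, further factors such as KLF4, TFCP2L1, TBX3 and ESRRB, with KLF4 and TFCP2L1 sustained by LIF signalling through STAT3, keep the core genes on and are lost when cells move towards the primed epiblast. SET1A belongs to a complex that places methyl groups on histone H3 lysine 4, largely at promoters rich in CpG dinucleotides.

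Levels are RPKM, read numbers scaled by transcript length and library depth, and may be ordered between genes because they are scaled by length. Depth was not stated and was recovered from the spacing of low values, where a single read adds a fixed amount. It was 6402000 reads in the Set1a siRNA library and 6652000 in the control siRNA library. Each ratio is the Set1a siRNA level over the control siRNA level, with an exact Clopper-Pearson 95% interval computed on recovered reads, which reflects the error of counting alone. A fold is log2 of the same ratio after adding 1 RPKM to both levels, and is given where the mean of both libraries reached 1 RPKM, the floor. Setd1a itself was at 11.97 RPKM in the Set1a siRNA library and 14.2 RPKM in the control siRNA library, a ratio of 0.846 (0.745 to 0.959), so the level of the targeted gene differed modestly. Its fold of -0.225 lay between those of Sox2 and Dppa5a, below which 18.3% and 13.2% of genes above the floor lay. Of 5400 genes whose mean reached 10 RPKM, 16.3% had an interval below 1. A difference of this size is thus common between the 2 libraries and does not by itself mark out Setd1a. In bulk RNA, fewer cells of a type and less RNA per cell cannot be told apart.

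Most of the 30 genes had nearly the same level in both libraries. Of the 29 above the floor of 1 RPKM, 0 reached a 2-fold higher level and 0 a 2-fold lower one, while among all 11802 genes above the floor 0.771% were that much higher and 0.407% that much lower. The ratio lay within 10% of 1 for 18 of the 29, and the share of all genes above the floor within 10% was not computed. Among genes whose mean reached 50 RPKM, the median size of the log2 fold, whatever its sign, was 0.108 for all 1130 and 0.083 for the 20 members. Most genes at that level thus also lay within 10% of 1. The members' median log2 fold came to 0.0020 (quartiles -0.09 and 0.07), against 0.0063 (quartiles -0.14 and 0.16) for all genes above the floor. Quartiles for the 20 abundant members were -0.193 and 0.045, beside -0.134 and 0.082 for the 1130 genes that reached 50 RPKM. Against genes of similar level, the members' quartiles were thus not closer together. At 1.5-fold the counts were also 0 and 0, beside 2.77% of all genes on the higher side and 1.75% on the lower. When a level 25% above that of the other library was enough, 1 member was higher (Gbx2) and 1 lower (Nr0b1), beside 10.4% of all genes higher and 8.14% lower. Such folds were rarer among abundant genes. Of the 1130 genes that reached 50 RPKM, 33 were higher and 58 lower by the 25% rule. At 1.5-fold 4 were higher and 3 lower, and at 2-fold 1 and 1. Of the 20 abundant members, 0 were higher and 1 lower by the 25% rule, so low counts do not set the members apart. Pramel7, the 1 member below the floor, had the ratio farthest from 1 and is described last of the members.

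**Figure D1:**
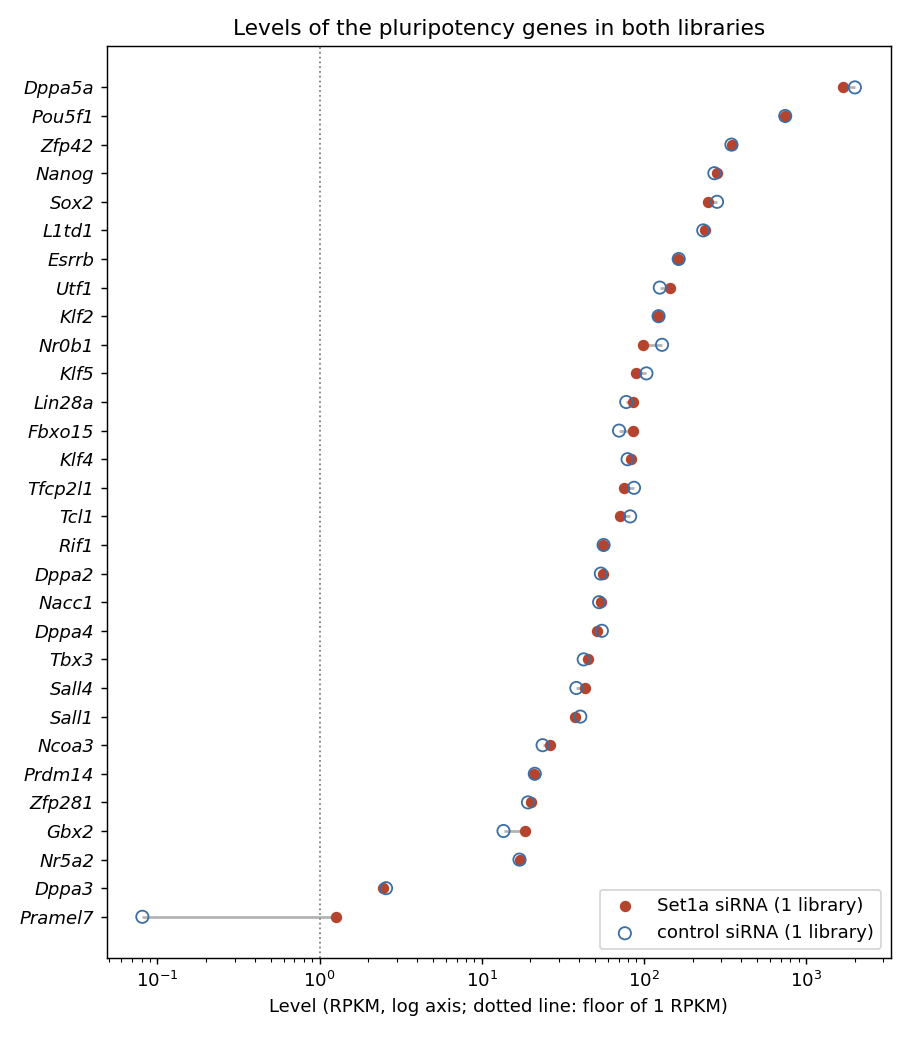
Levels in RPKM on a log axis for the 30 pluripotency genes, with filled points for the Set1a siRNA library and open points for the control siRNA library, 1 library each, ordered by the Set1a siRNA level; the dotted line is the floor of 1 RPKM. The 2 points nearly coincide for most genes across a range from 2.48 to 1692 RPKM in Set1a siRNA cells, and Pramel7, at the bottom, is the 1 gene whose points lie far apart.

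Of the core factors, Pou5f1, which encodes OCT4, was the most abundant. It was at 740.5 RPKM in the Set1a siRNA library, rank 88 of all genes, and at 745 RPKM in the control siRNA library, rank 96. Its ratio of 0.994 (0.960 to 1.03) rested on 6457 Set1a siRNA and 6751 control siRNA reads, the largest read numbers among the members after those of Dppa5a, and its interval was correspondingly narrow. Nanog, a homeobox factor, was at 281 RPKM in the Set1a siRNA library and 272 RPKM in the control siRNA library, a ratio of 1.03 (0.988 to 1.08). Sox2, the HMG-box partner of OCT4, stood apart from these, at 248 RPKM in the Set1a siRNA library and 283 RPKM in the control siRNA library. Its ratio was 0.875 (0.835 to 0.917), and the order of Nanog and Sox2 was therefore opposite in the libraries, with Nanog higher in Set1a siRNA cells and Sox2 higher in control siRNA cells.

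The DNA before the start site was available for 18 of the 30 genes, from RefSeq on build GRCm38.p6, and the 250 bases before the most upstream annotated start were searched on both strands. The 7-base core of the octamer, TTTGCAT, occurred in the windows of Nanog, Zfp42 and Sox2, 3 of 18 (16.7%), and in 4.07% of 27025 windows of all genes and 3.11% of 9310 windows of genes above the floor. The full octamer ATGCAAAT, which contains the reverse complement of that core, occurred in 1 window, that of Zfp42, and in 1.62% of all and 1.43% of those above the floor. These 3 windows are shown because they carry the site that the core factor OCT4 reads; capitals mark the 7-base core on either strand and, in Nanog, also ACAATG, a SOX-type motif found in 16.7% of the 18 windows, 10.9% of all and 5.68% of those above the floor.
Nanog: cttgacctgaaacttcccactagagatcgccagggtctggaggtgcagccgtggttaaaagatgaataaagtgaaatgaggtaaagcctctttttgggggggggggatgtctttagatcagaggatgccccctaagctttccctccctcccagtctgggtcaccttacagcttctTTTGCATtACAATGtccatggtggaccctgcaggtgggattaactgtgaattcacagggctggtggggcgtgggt
Zfp42: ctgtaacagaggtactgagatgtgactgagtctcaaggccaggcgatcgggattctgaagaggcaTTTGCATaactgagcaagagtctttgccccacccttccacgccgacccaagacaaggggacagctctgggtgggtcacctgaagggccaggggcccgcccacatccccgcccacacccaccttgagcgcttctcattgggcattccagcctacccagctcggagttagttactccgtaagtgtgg
Sox2: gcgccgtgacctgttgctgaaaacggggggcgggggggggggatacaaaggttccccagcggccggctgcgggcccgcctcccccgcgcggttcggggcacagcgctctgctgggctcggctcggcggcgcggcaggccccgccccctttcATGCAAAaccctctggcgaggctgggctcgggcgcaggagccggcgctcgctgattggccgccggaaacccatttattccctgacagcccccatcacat
The Nanog window is chr6:122707239-122707488 on the plus strand, the Zfp42 window chr8:43307010-43307259 on the minus strand, and the Sox2 window chr3:34649745-34649994 on the plus strand. In Nanog the core begins at position -75 and the SOX-type motif at position -67 relative to the start site, 1 base apart, while in Zfp42 the core begins at -185 and in Sox2 at -99. A match of letters is a description, and these 3 genes had ratios of 1.03, 1.01 and 0.875 in the order shown. The windows held the KLF-type motif GGGTGTGG in 1 member, Zfp42, beside 3.22% of all windows and 3.37% of those of genes above the floor. The ESRRB-type motif AAGGTCA was in 0, beside 4.04% and 2.76%, and the SOX motif ACAAAG in 2 (11.1%), beside 16.5% and 11.8%. The TATA box TATAAA was in 3 (16.7%), beside 13.0% and 6.23%, and the GC box GGGCGG in 9 of 18, beside 33.0% and 60.5%.

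Among the 10 factors of the naive circuit, levels ran from 17.1 RPKM for Nr5a2 to 162 RPKM for Esrrb in Set1a siRNA cells, and from 13.6 RPKM for Gbx2 to 164 RPKM for Esrrb in control siRNA cells. Esrrb, an orphan nuclear receptor, had a ratio of 0.988 (0.948 to 1.03). The Krüppel-like factors had unequal ratios. Klf2 was at 123 RPKM in both libraries, with a ratio of 0.996 (0.926 to 1.07). Klf4 was at 83.7 RPKM in Set1a siRNA cells and 79.5 RPKM in control siRNA cells, a ratio of 1.05 (0.982 to 1.13). Klf5 was at 90.01 RPKM in Set1a siRNA cells and 104 RPKM in control siRNA cells, a ratio of 0.867 (0.816 to 0.922). This interval does not overlap those of Klf2 and Klf4. With 99% intervals, that of Klf5, 0.801 to 0.939, overlaps that of Klf2, 0.905 to 1.095, but not that of Klf4, 0.961 to 1.154.

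Tfcp2l1, a CP2-family factor downstream of LIF, was at 75.8 RPKM in the Set1a siRNA library and 87.0 RPKM in the control siRNA library, a ratio of 0.871 (0.837 to 0.907) from 4499 Set1a siRNA and 5366 control siRNA reads. Tbx3, a T-box factor, had 45.1 RPKM in the Set1a siRNA library and 42.6 RPKM in the control siRNA library, a ratio of 1.06 (0.981 to 1.14). Among these factors, the intervals of Tfcp2l1 and Klf5 lay below 1, while those of Tbx3 and Klf4 included it. Prdm14, a PR-domain repressor of FGF signalling, was at 21.1 RPKM in Set1a siRNA cells and 21.3 RPKM in control siRNA cells, a ratio of 0.994 (0.855 to 1.15). Nr5a2, an orphan nuclear receptor that acts at the Pou5f1 locus, was at 17.1 RPKM in both, a ratio of 1.001 (0.818 to 1.23).

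The extremes of the members above the floor were both naive factors. Nr0b1, an X-linked orphan nuclear receptor that binds OCT4, had the lowest ratio. It was at 99.6 RPKM in the Set1a siRNA library and 130 RPKM in the control siRNA library, a ratio of 0.769 (0.711 to 0.830) from 1152 Set1a siRNA and 1558 control siRNA reads. Of all genes above the floor, 5.91% had a lower fold, and among the 1130 genes whose mean reached 50 RPKM, 3.27% did. Gbx2, a homeobox factor induced by LIF and STAT3, had the highest ratio, at 18.5 RPKM in the Set1a siRNA library and 13.6 RPKM in the control siRNA library. Its ratio was 1.35 (1.11 to 1.64) from 252 Set1a siRNA and 194 control siRNA reads, and 6.70% of genes above the floor had a higher fold. Gbx2 exons share 946 bases with exons of a gene on the opposite strand, D130058E05Rik, and since the treatment of strand is not given in the sources used here, reads of these genes cannot be told apart. Exons of Pou5f1, Lin28a, Sall4 and Tbx3 are likewise overlapped on the opposite strand, over 317, 234, 526 and 115 bases in that order.

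**Figure D2:**
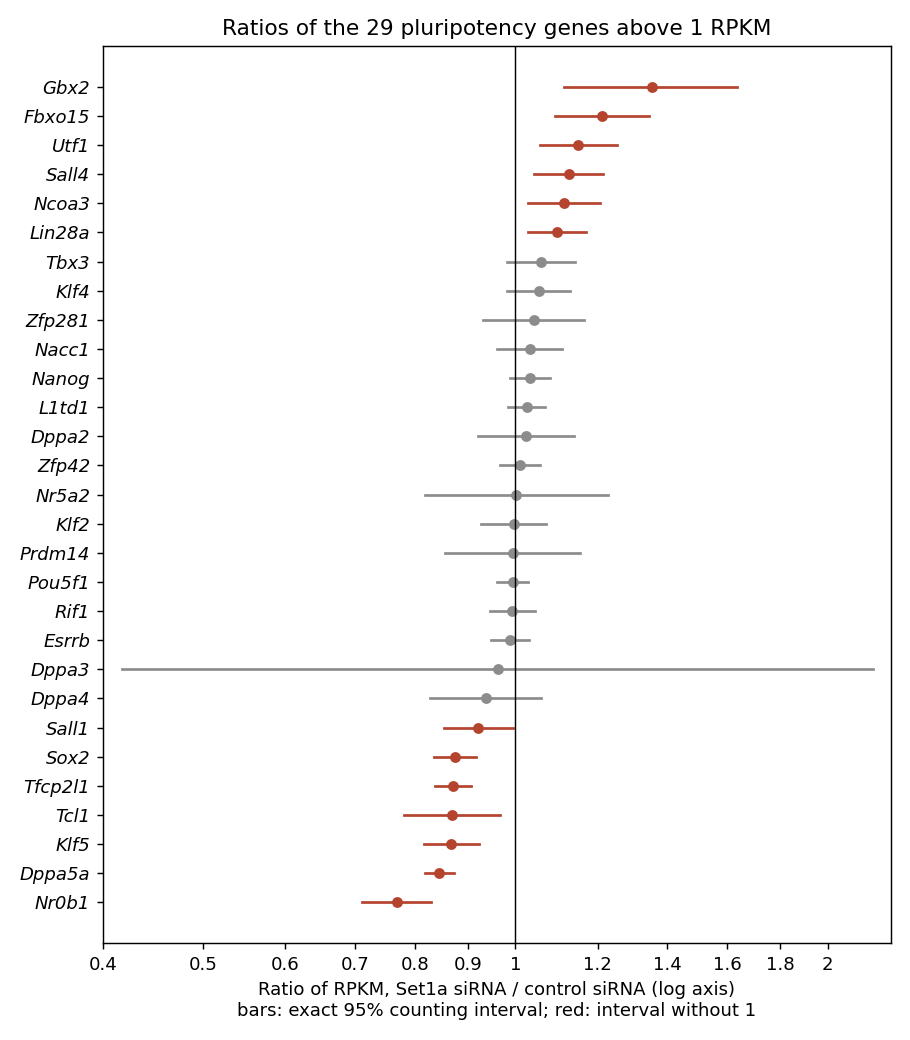
Ratio of RPKM, Set1a siRNA over control siRNA, on a log axis for the 29 pluripotency genes above 1 RPKM, with exact 95% counting intervals from 1 library each; red marks intervals that do not contain 1. Intervals lie above 1 for 6 genes, led by Gbx2 at 1.35, and below 1 for 7, ending with Nr0b1 at 0.769, while the other 16 contain 1, with Dppa3 the widest.

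Counting intervals excluded 1 for 13 of the 29 members, 6 above it and 7 below. Among the 11670 genes above the floor with a known length, the share above 1 was 12.2% and the share below 1 was 11.3%. As abundant genes have narrow intervals, the closer background is the 1111 such genes whose mean reached 50 RPKM, where 19.7% lay above 1 and 30.1% below; of the 20 members at that level, 3 lay above and 6 below. These shares are near the background, so an interval without 1 is common at this depth and says nothing about variation between cultures. In the order of ratios, 0 of 28 pairs of neighbours had intervals that did not overlap. Neighbours are the closest pairs by construction, so this does not show that the members share a ratio. Those at the ends, Nr0b1 (0.711 to 0.830) and Gbx2 (1.11 to 1.64), did not overlap.

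**Figure D3:**
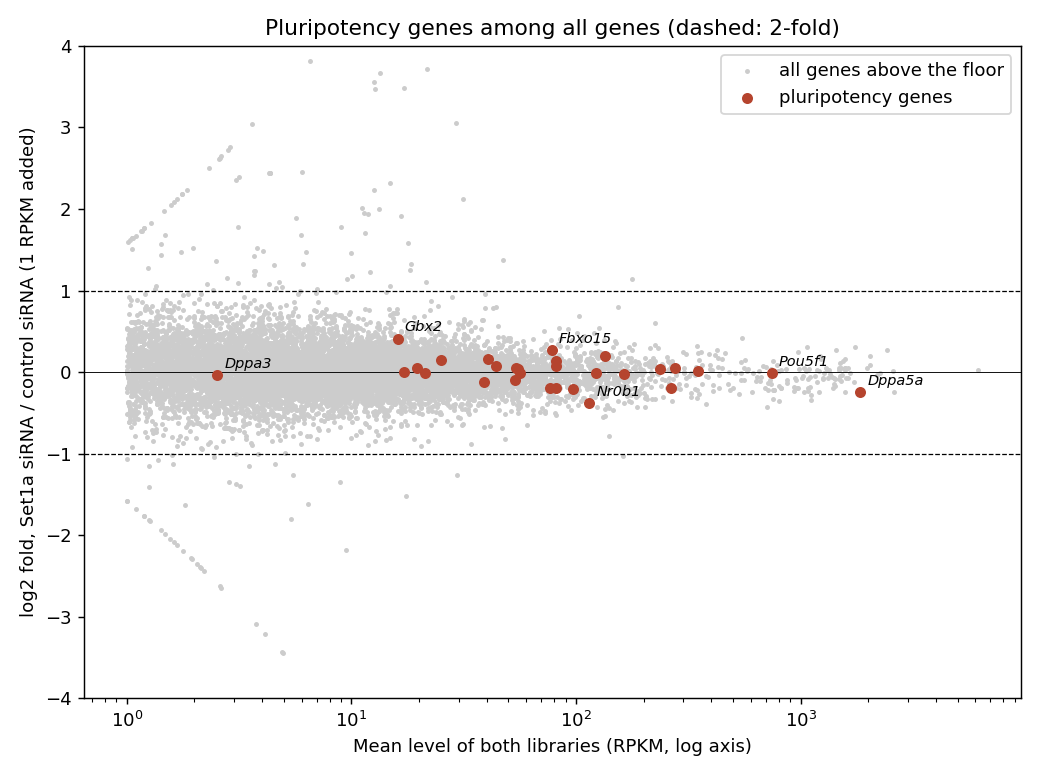
Log2 fold of Set1a siRNA over control siRNA, with 1 RPKM added, against the mean level in RPKM on a log axis, for all 11802 genes above the floor in grey and the 29 pluripotency genes above it in red; dashed lines mark 2-fold. The red points run from -0.38 for Nr0b1 to 0.41 for Gbx2, all within the dashed lines, and lie mostly in the abundant part of the range.

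The partners and cofactors of the core were moderately expressed, at 20.1 to 56.1 RPKM in Set1a siRNA cells and 19.3 to 56.5 RPKM in control siRNA cells. Sall4, a zinc-finger partner of OCT4 and NANOG, was at 43.2 RPKM in the Set1a siRNA library and 38.4 RPKM in the control siRNA library, a ratio of 1.13 (1.04 to 1.21). Its other listed transcripts had ratios of 1.096 and 1.14, so all 3 were on the same side of 1, though transcripts of a gene can share reads. Sall1, its paralog, lay on the other side of 1, at 37.4 RPKM in Set1a siRNA cells and 40.6 RPKM in control siRNA cells, a ratio of 0.921 (0.853 to 0.994), and with a 99% interval, 0.833 to 1.02, it included 1. Ncoa3, a coactivator that works with ESRRB, was at 26.4 RPKM in Set1a siRNA cells and 23.8 RPKM in control siRNA cells, a ratio of 1.11 (1.03 to 1.21). Its exons share 154 bases with those of Sulf2, on the opposite strand, which was at 34.4 RPKM in Set1a siRNA cells and 30.9 RPKM in control siRNA cells, and the part of this overlap in the Ncoa3 ratio was not tested.

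The remaining partners were level. Rif1, a telomere and replication-timing protein that is abundant in embryonic stem cells, had a ratio of 0.993 (0.945 to 1.04). Nacc1, a BTB-domain partner of NANOG, had 1.03 (0.961 to 1.11), and the zinc-finger gene Zfp281 had 1.04 (0.931 to 1.16).

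Of the developmental pluripotency-associated genes, Dppa5a, which encodes a KH-domain RNA-binding protein, was the most abundant member by far. It was at 1692 RPKM in the Set1a siRNA library, rank 11 of all genes, and at 2004 RPKM in the control siRNA library, rank 7. Its ratio was 0.844 (0.817 to 0.872), and 10.4% of the genes whose mean reached 50 RPKM lay lower in fold. Because of its level, this 1 gene set the sum over the list: the 30 members added up to 5022 RPKM in Set1a siRNA cells and 5366 RPKM in control siRNA cells, a ratio of 0.936, and without Dppa5a to 3330.1 RPKM in Set1a siRNA cells and 3363 RPKM in control siRNA cells, a ratio of 0.990. Near-identical copies, defined by a match of 90% identity that spans 50% or more of the shorter transcript, exist for Dppa5a under 10 other gene names, so its value is uncertain to the extent that reads were counted at copies. One of them, Pigp, has a transcript with a 417-base match and was at 105 RPKM in Set1a siRNA cells and 128 RPKM in control siRNA cells.

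Dppa2 and Dppa4, which encode a pair of SAP-domain chromatin proteins, had close levels. Dppa2 was at 55.7 RPKM in Set1a siRNA cells and 54.3 RPKM in control siRNA cells, a ratio of 1.02 (0.921 to 1.14). Dppa4 was at 51.7 RPKM in Set1a siRNA cells and 55.1 RPKM in control siRNA cells, a ratio of 0.937 (0.826 to 1.06). Dppa3, also known as Stella, a protector of DNA methylation in the early embryo, was low, at 2.48 RPKM in Set1a siRNA cells and 2.57 RPKM in control siRNA cells. With 13 Set1a siRNA and 14 control siRNA reads its interval of 0.418 to 2.21 was too wide to show a difference smaller than about 2-fold. All 3 genes also have near-identical copies so defined, as do Nanog, Zfp42, Klf4, Klf5, Nacc1, Tfcp2l1 and Pramel7, 11 members in all with Dppa5a. The shorter transcript can be that of the other gene, so a match may cover little of the member. For Klf4 it was 242 bases, beside a transcript length of 3029. The match of Tfcp2l1, Gm23497, overlaps the exons of Tfcp2l1 itself over 130 bases on the same strand, so it is not a copy elsewhere.

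The RNA-binding proteins beside Dppa5a were L1td1, derived from a LINE-1 open reading frame, and Lin28a, which blocks maturation of let-7 microRNAs. L1td1 was at 239 RPKM in Set1a siRNA cells and 233 RPKM in control siRNA cells, a ratio of 1.03 (0.984 to 1.07). Lin28a was at 85.5 RPKM in Set1a siRNA cells and 78.0 RPKM in control siRNA cells, a ratio of 1.096 (1.03 to 1.17).

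The widely used reporter and target genes of the core factors had ratios on both sides of 1. Zfp42, which encodes REX1, was at 351 RPKM in Set1a siRNA cells and 347 RPKM in control siRNA cells, a ratio of 1.01 (0.966 to 1.05). Utf1, a chromatin-associated factor, was at 144 RPKM in Set1a siRNA cells and 126 RPKM in control siRNA cells, a ratio of 1.15 (1.06 to 1.252). Utf1 was therefore higher beyond counting error, and Zfp42 was not. Fbxo15, an F-box gene activated by OCT4 and SOX2, was at 85.3 RPKM in Set1a siRNA cells and 70.4 RPKM in control siRNA cells. Its ratio was 1.21 (1.09 to 1.35), and 4.25% of the genes whose mean reached 50 RPKM lay higher in fold. Tcl1, a coactivator of AKT, was at 71.6 RPKM in Set1a siRNA cells and 82.4 RPKM in control siRNA cells, a ratio of 0.868 (0.780 to 0.965).

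Pramel7, a PRAME-family gene of the inner cell mass that promotes loss of DNA methylation, had the ratio farthest from 1 of all members. It was at 1.26 RPKM in the Set1a siRNA library and 0.0808 RPKM in the control siRNA library, from 15 Set1a siRNA reads and 1 control siRNA read. The ratio was 15.5, with an interval of 2.40 to 656. How common such a ratio is among genes below the floor was not examined. Its mean lay below the floor, so it entered no count of folds or intervals above, and Dppa3 was the nearest member above the floor. A gene of 91.5% identity, Gm5949, matches it over 1442 bases.

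The windows of Gbx2, Nr0b1 and Pramel7, the members at the ends of the range, are shown with each CpG in capitals, because CpG-rich promoters are where SET1A complexes are known to act.
Gbx2: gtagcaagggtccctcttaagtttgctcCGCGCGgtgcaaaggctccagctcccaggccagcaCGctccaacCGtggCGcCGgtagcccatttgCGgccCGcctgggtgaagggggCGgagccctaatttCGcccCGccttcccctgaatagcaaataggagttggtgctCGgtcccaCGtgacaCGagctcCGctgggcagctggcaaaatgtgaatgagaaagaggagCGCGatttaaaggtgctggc
Nr0b1: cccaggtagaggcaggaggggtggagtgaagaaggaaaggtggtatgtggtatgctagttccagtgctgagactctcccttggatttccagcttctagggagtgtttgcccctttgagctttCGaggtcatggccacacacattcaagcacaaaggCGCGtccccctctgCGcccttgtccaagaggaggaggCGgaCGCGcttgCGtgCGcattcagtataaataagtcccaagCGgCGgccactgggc
Pramel7: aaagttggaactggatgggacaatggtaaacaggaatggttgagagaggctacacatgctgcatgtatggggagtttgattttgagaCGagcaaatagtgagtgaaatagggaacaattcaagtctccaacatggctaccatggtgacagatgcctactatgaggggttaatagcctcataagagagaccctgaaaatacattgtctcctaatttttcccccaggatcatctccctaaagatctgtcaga
The Gbx2 window is chr1:89931177-89931426 on the minus strand, the Nr0b1 window chrX:86191525-86191774 on the plus strand, and the Pramel7 window chr2:87492419-87492668 on the minus strand. They held 18, 11 and 1 CpG in that order. Over the 18 members with a window the number ran from 1 to 32 with a median of 11, against a median of 16 in 9310 windows of genes above the floor. The highest were Klf4 with 32, Klf2 with 29 and Sox2 with 27, and their ratios of 1.05, 0.996 and 0.875 differ although all 3 windows are CpG-rich. The 10 members with at least 10 CpG had a median log2 fold of 0.02, and the 7 above the floor with fewer had 0.0020, against 0.02 for 7049 and -0.01 for 2261 windows of all genes above the floor, split at the same number. The members with at least 10 CpG were more spread, with quartiles of -0.17 and 0.07, than those with fewer, with quartiles of -0.01 and 0.03. All genes above the floor went the other way, with quartiles of -0.121 and 0.155 at 10 or more CpG and -0.187 and 0.152 below. The difference in spread was not tested.

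**Figure D4:**
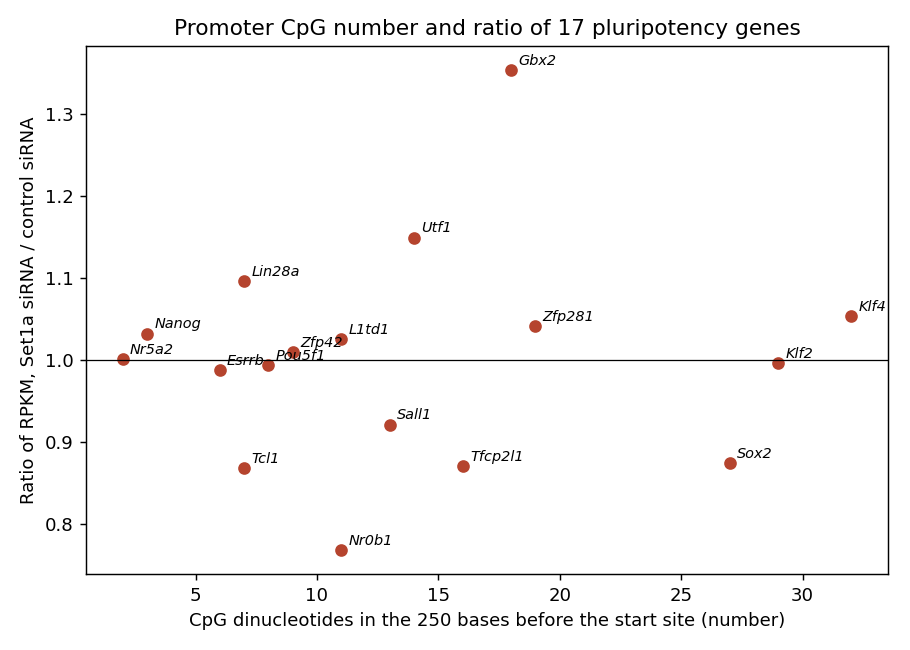
Number of CpG dinucleotides in the 250 bases before the start site against the ratio of RPKM, Set1a siRNA over control siRNA, for the 17 pluripotency genes above 1 RPKM that have a window; each point is 1 gene and the line marks a ratio of 1. Nr0b1 at 11 CpG and Gbx2 at 18 lie farthest from the line, and Klf4 and Klf2, with the most CpG, lie near it.

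A second list of 48 other genes tied to pluripotency was all found, and 47 were above the floor. By the 2-fold rule 0 were higher and 0 lower. Of the 47, 25 had a ratio above 1 and 22 below it, with a median log2 fold of 0.03. The highest folds belonged to Tex19.1, a germline and stem cell gene, at 29.3 RPKM in Set1a siRNA cells and 19.3 RPKM in control siRNA cells, a ratio of 1.52 (1.28 to 1.81), to Myc, with 1.46 (1.12 to 1.92), and to Manba, with 1.24 (1.15 to 1.35). The lowest belonged to Cdh1, which encodes E-cadherin, at 47.9 RPKM in Set1a siRNA cells and 65.0 RPKM in control siRNA cells, a ratio of 0.737 (0.687 to 0.790), to the Nodal inhibitor Lefty1, with 0.791 (0.719 to 0.868), and to Zfp296, with 0.833 (0.702 to 0.984).

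Genes of the primed epiblast and of early lineages were lower than most members, whose median above the floor was 75.8 RPKM in Set1a siRNA cells and 78.0 RPKM in control siRNA cells. The 16 listed genes reached at most 23.1 RPKM in Set1a siRNA cells and 25.2 RPKM in control siRNA cells. Both values were for the DNA methyltransferase gene Dnmt3b. Of the 16, 10 were above the floor, 5 higher and 5 lower. Past 2-fold there were 0, beside 0.771% of all genes above the floor on the higher side and 0.407% on the lower. Otx2, a driver of the exit from the naive state, had a ratio of 0.853 (0.702 to 1.03), Zic2 of 0.871 (0.699 to 1.08) and Sox4 of 0.757 (0.631 to 0.912). Fgf15 had 1.53 (1.11 to 2.13) and Dnmt3a had 1.03 (0.860 to 1.23). The markers were those of the labelled cell type: 29 of 30 members were above the floor in the mean of both libraries, while Cdx2 and Elf5 of trophectoderm and Col1a2, Dcn and Postn of fibroblasts were at 0 in both. Of 8 trophectoderm markers 3 were above the floor, and all 8 summed to 19.998 RPKM in Set1a siRNA cells and 20.05 RPKM in control siRNA cells; the ratio was 0.815 (0.667 to 0.9997) for Tfap2c and 1.13 (0.783 to 1.61) for Krt8. Eomes, which is also on the primed list, was at 3.77 RPKM in Set1a siRNA cells and 2.55 RPKM in control siRNA cells, a ratio of 1.48 (1.06 to 2.11). Of 8 primitive endoderm markers 1 was above the floor, Lama1, with a ratio of 1.13 (1.03 to 1.24). All 8 summed to 19.08 RPKM in Set1a siRNA cells and 16.8 RPKM in control siRNA cells. Of 8 fibroblast markers 2 were above the floor, Vim and Thy1. All 8 summed to 97.8 RPKM in Set1a siRNA cells and 75.9 RPKM in control siRNA cells, nearly all from Vim. Vim, which embryonic stem cells also express, had a ratio of 1.27 (1.17 to 1.38), and Thy1 had 1.59 (0.969 to 2.67). Below the floor, Col1a1 had 14 Set1a siRNA and 3 control siRNA reads, a ratio of 5.70 (1.35 to 26.3). Col3a1 had 0 Set1a siRNA reads and 1 control siRNA read, and Lum had 1 and 0 in that order. Every trophectoderm or primitive endoderm marker with reads below the floor had an interval that included 1.

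**Figure D5:**
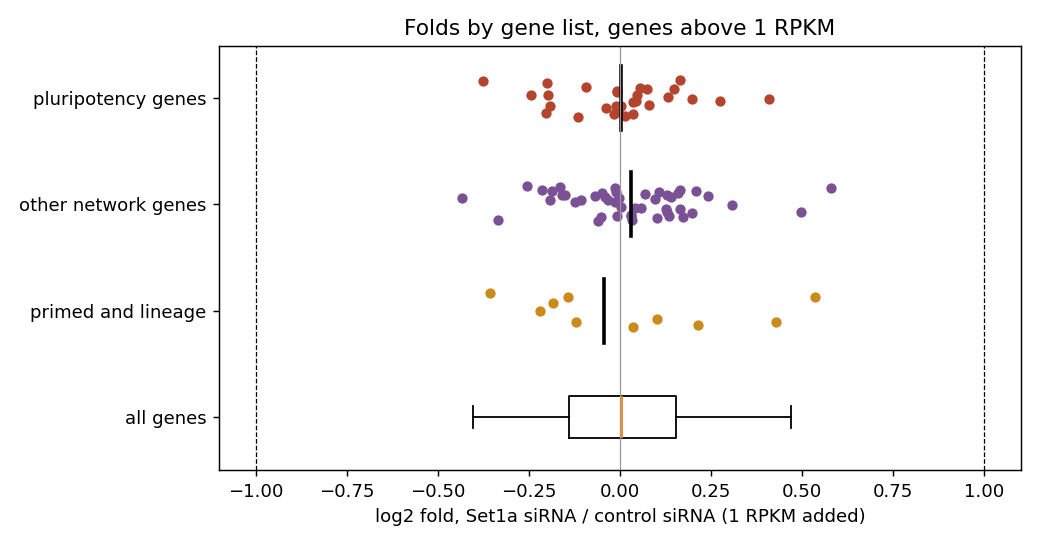
Log2 fold of Set1a siRNA over control siRNA, with 1 RPKM added, for the genes above 1 RPKM of each list, 1 point per gene with a bar at the median, beside all genes as a box with whiskers from the 5th to the 95th percentile. Every point of the 3 lists lies within 2-fold (dashed lines), with medians of 0.0020 for the pluripotency genes, 0.03 for the other network genes and -0.04 for the primed and lineage genes.

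The order of the members by level was nearly the same in both libraries. Of 435 pairs of members, 15 were ordered differently. No such share was computed for other genes. Member levels ran from 0.0808 to 2004 RPKM in control siRNA cells, so an order that is mostly kept says little about the members. The 15 pairs included Lin28a and Fbxo15, which stood above Klf4, Tfcp2l1 and Tcl1 in Set1a siRNA cells and below them in control siRNA cells, and Nr0b1, which stood below Utf1 and Klf2 in Set1a siRNA cells and above them in control siRNA cells.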

How the data were processed

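RNA-seq was done on 1 Set1a siRNA and 1 control siRNA library. The deposited tables give 1 value for each of 28430 RefSeq transcripts, the same ones in both; RPKM was inferred as the unit of the deposited values, since value times length moved in whole steps. CASAVA, TopHat, TopHat2 2.0.12 and SAMtools 0.1.16 with build mm9 are named per the submitters' processing notes, without roles; the counting program, its use of strand and its multi-mapping rule were not given in the sources used here. Symbols came from a GRCm38.p6 RefSeq table and GENCODE M21 (27957 transcripts, 98.3%), and lengths from GENCODE M21 (27552, 96.9%). Depth was fitted to the values; 74.2% of low values in the Set1a siRNA library and 74.9% in the control siRNA library came out within 0.1 of a whole number of reads (20% would by chance), so reads are approximate. Mean floor, 1 RPKM; pseudocount, 1. Promoter windows and printed coordinates are GRCm38.p6, not mm9. Scripts used Python 3.11.15, SciPy 1.17.1 and BLAST 2.17.0 and were tested on simulated data. Members and lists were chosen with earlier results of these data known. All 30 members were named; from each other list, up to 3 genes with the highest and 3 with the lowest fold at a mean of at least 5 RPKM. Levels of other marker genes and of overlapping or matching genes were chosen after their values were seen. Members without a promoter window were Klf5, Tbx3, Dppa2, Dppa3, Dppa4, Dppa5a, Sall4, Prdm14, Fbxo15, Rif1, Nacc1 and Ncoa3.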

Additional observations from a re-analysis of the deposited data

Results flagged for a closer look

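Pramel7 drew attention as the member that the floor of 1 RPKM left out of the counts of folds and intervals, with a level in the Set1a siRNA library above that in the control siRNA library. Its ratio was 15.5 (2.40 to 656), from 15 Set1a siRNA reads against 1 control siRNA read.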

How the results depend on the processing

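The median log2 fold of the members, 0.0020, stayed between -0.0073 and 0.014 in 12 other settings, which changed the pseudocount, floor, scaling, choice of transcript or summary, or left out members with near-identical copies or overlapping exons or with a mean under 50 RPKM; its sign is not firm. The number of members at least 2-fold higher, 0, became 1 without a floor, when Pramel7 entered, and a 25% difference as the rule gave 1 higher and 1 lower. The ratio of the summed levels, 0.936, was 0.990 without Dppa5a, which shows how far it rests on that gene. The last setting, like those on copies, exons and level, was chosen after seeing the data. All 180 recomputed folds of single members stayed within their counting half-interval, but many of them could hardly move. Most members had only 1 listed transcript, so choosing or summing transcripts left them unchanged, and the changes of scaling were very small. The half-interval of Pramel7 is too wide to be informative: its fold was 1.06, 2.91 with a pseudocount of 0.1 and 0.30 with one of 5. Counting intervals were not recomputed for summed transcripts, which share reads. Scaling by the median of ratios, or without the 50 most abundant genes, changed levels by a factor of 1.0021. No paired analysis was possible because there was 1 library on each side. Depth limits Dppa3 and Pramel7 most, as they rest on 1 to 15 reads per library.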
